A study of Mus musculus with 24 samples.

Results

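Granulocyte and macrophage progenitors (GMP) were compared with megakaryocyte and erythroid progenitors (MEP) of wild-type (WT) mice, as 3 arrays titled WT LK GFPhi against 3 titled WT LK GFPneg, chosen by their titles alone. These are 6 of the 24 arrays of a study of 4 sorted blood progenitor populations in WT and Ikaros-null (KO) mice, and all 18193 genes with a probe set of their own were compared. LK cells are, in the usage of this field, progenitors that lack mature lineage markers and carry the receptor Kit, and both groups came from B-p-GFP-C mice (C57BL/6 x C3H), whose GFP transgene is built on Ikaros regulatory sequence. Cells with high GFP are labelled GMP and cells without GFP are labelled MEP, so both names rest on a reporter gate. The KO arrays used further below came from B-p-GFP-C mice that also carried the Ikaros null allele (I74 line, C57BL/6 x 129SV), so genotype and strain background cannot be told apart. The titles number the arrays of a group as biological replicates, and the labels state no age and do not say whether an array came from 1 animal or from a pool.

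Early blood progenitors lose stem cell potential in steps and settle on one of a few fates. In textbook accounts the factors PU.1 (gene Spi1) and the C/EBP family drive granulocyte and monocyte development, while GATA1, with its partner FOG1 (gene Zfpm1), and KLF1 drive red cell and platelet development, and PU.1 and GATA1 oppose each other. GMP begin to fill primary granules with proteases and myeloperoxidase, whereas MEP build the machinery for heme, iron and the red cell membrane before globin accumulates.

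Values are log2 RMA signals, so a difference of 1 is 2-fold, and differences are GFPhi minus GFPneg with limma's standard error (SE) from 1 fit of all 24 arrays (n = 3 arrays per group). An adjusted p (Benjamini and Hochberg, over all 18193 genes) below 0.05 made a gene a called one. Arrays of GFPhi cells correlated at r = 0.979 to 0.994 with each other across genes and those of GFPneg cells at 0.991 to 0.994, while arrays of different groups correlated at 0.930 to 0.949 (genes are not independent replicates). GFPhi replicate 2 stood a little apart with an array weight of 0.442, the lowest of the 6. With 3 arrays per group, their number limits the precision, and an RMA signal carries no call of presence. Of 10 GMP markers all 10 were higher in GFPhi cells (differences of 1.65 to 6.04), and of 9 measured MEP markers all 9 were lower (-6.07 to -1.33). The GMP markers were Mpo, Elane, Prtn3, Ctsg, Cebpa, Csf1r, Csf3r, Fcgr3, Cd34 and Ms4a3. The MEP markers were Gata1, Klf1, Epor, Car1, Gfi1b, Itga2b, Pf4, Zfpm1 and Rhag. They were chosen with earlier results of these data known, so they are not an independent check of the labels. Over all genes the median difference was close to 0 (-0.00034), and it was -0.11 after median centring of the arrays.

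Limma called 3380 of 18193 genes, 18.6%, of which 1816 (9.98% of all genes) were higher and 1564 (8.6%) lower in GFPhi cells. Called differences of at least 2-fold numbered 1503 (8.26% of all genes), 936 higher and 567 lower, and 60 higher and 37 lower genes differed at least 16-fold. These shares of 9.98% and 8.6% are the background for the counts per gene list below, in which some genes occur more than once. The 3 arrays of one group did not overlap those of the other in 5624 genes (30.9%), of which 3322 were called. Of all calls 53.7% were higher in GFPhi cells, against 39.7% after median centring and 51.0% after a further quantile normalization. Same-numbered arrays of the 2 groups deviated together, and a fit that blocked on this number called 4738 genes, 2289 higher and 2449 lower.

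**Figure D1:**
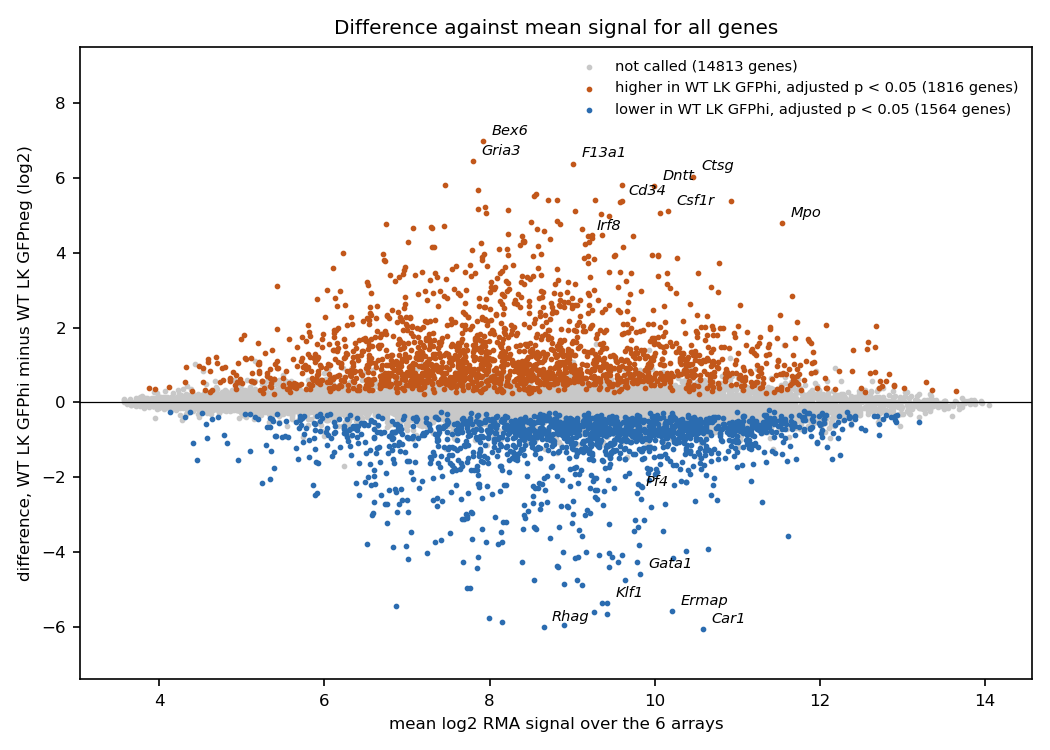
Each point is 1 of 18193 genes, with its mean log2 RMA signal over the 6 arrays on the x axis and the log2 difference, WT LK GFPhi minus WT LK GFPneg, on the y axis. The 1816 genes called higher and the 1564 called lower lie on both sides of 0 at all but the lowest signals, and named differences reach 6.99 for Bex6 and -6.07 for Car1.

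Clone symbols (such as Rik or Gm names) were passed over in the rankings of largest differences and interactions here and below. The largest rises and falls were taken only from called genes whose arrays did not overlap between the groups. For these genes, here and below, the lack of overlap follows from the choice and is not a further result. Of the 25 largest rises 8 were on the list of monocyte and macrophage genes, 2 each on those of primary granule and early lymphoid genes, and 11 on none of the 34 lists. Of the 25 largest falls 6 were on the list of red cell membrane and carbonic anhydrase genes, 2 on that of erythroid and megakaryocyte transcription factors, and 17 on none. F13a1, which encodes the A chain of coagulation factor XIII and is made by monocytes, had 12.51, 11.94 and 12.17 in GFPhi cells, against 5.82, 5.74 and 5.91 in GFPneg cells. Ctsg, the gene of the granule protease cathepsin G, had 13.72, 13.09 and 13.64 in GFPhi cells, against 7.58, 6.74 and 8.02 in GFPneg cells. The groups lay far apart in both, by 6.38 ± 0.38 (83.5-fold, adjusted p = 8.4e-11) and 6.04 ± 0.29 (65.7-fold, adjusted p = 3.9e-12). Bex6 (6.99) and Gria3 (6.44), a glutamate receptor subunit gene known from neurons, had the 2 largest rises. Gria3 gave 11.09, 11.02 and 10.96 in GFPhi cells, against 4.53, 4.65 and 4.55 in GFPneg cells.

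The other genes among the 25 largest rises were Emb (5.82), which encodes a partner of lactate transporters, Sting1 (5.81), the sensor of cyclic dinucleotides, Dntt (5.78), the sphingosine phosphate receptor gene S1pr3 (5.67), the chromatin organizer gene Satb1 (5.57), the choline dehydrogenase gene Chdh (5.51), the chemokine gene Ccl9 (5.42) and Atp8b4 (5.42), of the phospholipid flippase family. Ccr2 (5.40), Prtn3 (5.39), Cd34 (5.36), the adhesion molecule gene Alcam (5.23), Gpr171 (5.17), Mgst1 (5.15), Csf1r (5.12), Mpeg1 (5.12), Ms4a6b (5.06), Ms4a6c (5.05), Ly86 (5.04), Ctss (4.98) and the tetraspanin gene Cd53 (4.84) completed them. All 50 genes of both ends kept their call with the replicate block, and without probe sets ending in _x_at or _s_at, which can match more than 1 transcript, Sting1 was at 2.69 and Trib2 at -0.36, both still called. Of 44 other probe sets for these genes, 38 were called in the same direction and 0 in the opposite one. Clone symbols aside, 1 gene across the array had called probe sets of both signs, the phosphodiesterase gene Pde4d (-0.73 and 2.96).

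On the other side, Car1, the gene of carbonic anhydrase 1 of red cells, had 7.07, 7.42 and 8.15 in GFPhi cells, against 13.75, 13.38 and 13.73 in GFPneg cells. Rhag, which encodes the Rh-associated glycoprotein of the red cell membrane, had 5.29, 5.84 and 5.84 in GFPhi cells, against 11.44, 11.84 and 11.69 in GFPneg cells. The water channel gene Aqp1 had 5.67, 6.02 and 6.11 in GFPhi cells, against 11.83, 11.86 and 11.92 in GFPneg cells. The differences in these 3 genes were -6.07 ± 0.48 (67.2-fold lower, adjusted p = 6.0e-09), -6.002 ± 0.42 (adjusted p = 1.0e-09) and -5.94 ± 0.36 (adjusted p = 1.1e-10). The remaining large falls in GFPhi cells included the aldehyde dehydrogenase genes Aldh1a1 (-5.87) and Aldh1a7 (-4.96), near-identical neighbours whose probe sets may share signal. Mfsd2b (-5.76), which encodes the exporter of sphingosine phosphate of red cells and platelets, fell as well. So did the non-muscle myosin gene Myh10 (-5.66), the glutamine transporter gene Slc38a5 (-5.62), Ermap (-5.58), Tlcd4 (-5.45), Klf1 (-5.36), the pseudokinase gene Trib2 (-5.36) and Nxpe2 (-4.96). Below these came the carboxylesterase gene Ces2g (-4.88), the elongation factor gene Ell2 (-4.86), the biliverdin reductase gene Blvrb (-4.76), Epdr1 (-4.75), Septin8 (-4.74), Gata1 (-4.59), the poly(A) polymerase gene Tent5c (-4.43), the claudin gene Cldn13 (-4.41), the sphingosine kinase gene Sphk1 (-4.40), the blood group gene Kel (-4.38), the glycerol channel gene Aqp9 (-4.28) and Paqr9 (-4.28).

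**Figure D2:**
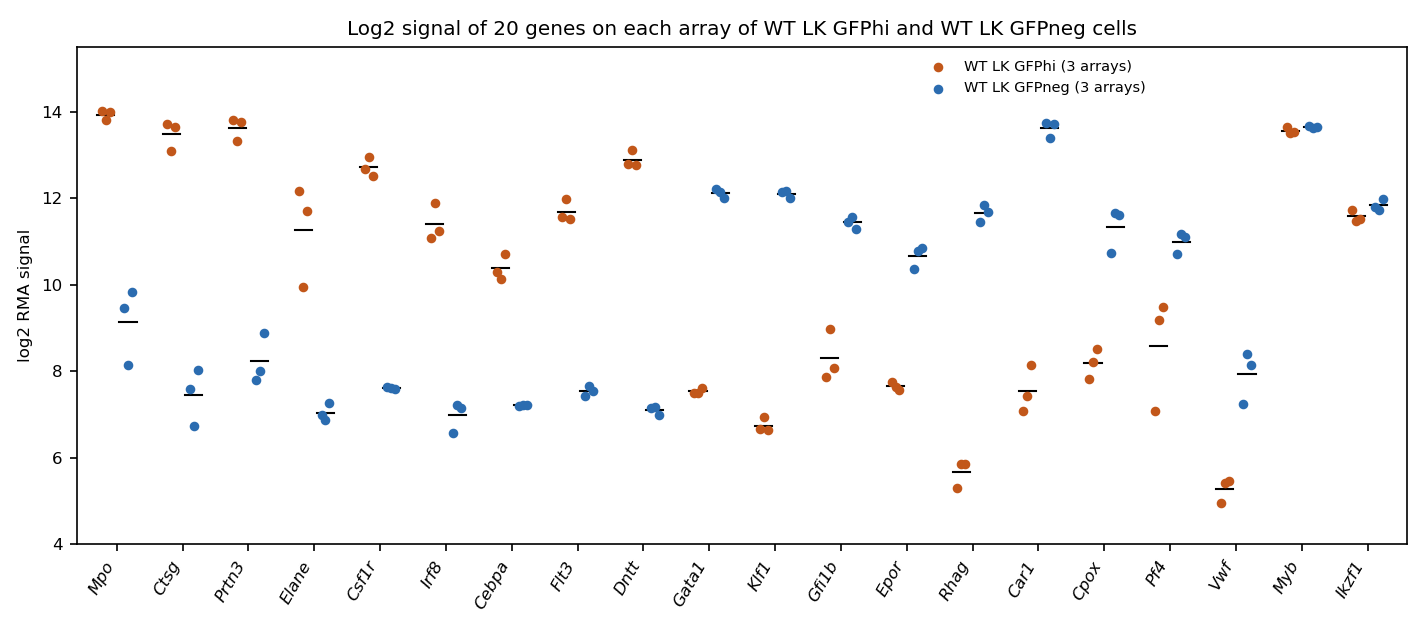
Log2 RMA signal (y axis) of 20 genes (x axis) on each of the 3 WT LK GFPhi arrays (orange) and the 3 WT LK GFPneg arrays (blue), with the group mean as a bar. The granule, monocyte and lymphoid genes on the left are higher on every GFPhi array, the red cell and platelet genes in the middle are lower on every GFPhi array, and Myb and Ikzf1 lie close together in both groups.

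Transcription factor genes split by lineage. Of 24 measured genes of a myeloid transcription factor list, 15 were higher in GFPhi cells and 0 lower, with a median difference of 1.55. Spi1, the gene of PU.1, had 8.09, 9.37 and 9.18 in GFPhi cells, against 6.60, 6.96 and 6.25 in GFPneg cells, a difference of 2.28 ± 0.24 (4.85-fold, adjusted p = 4.3e-07). Cebpa, which encodes C/EBP alpha, had 10.30, 10.13 and 10.70 in GFPhi cells, against 7.20, 7.21 and 7.22 in GFPneg cells, a difference of 3.17 ± 0.17 (8.97-fold, adjusted p = 3.0e-11). Both genes were separated on every array, although Spi1 varied more than Cebpa between the GFPhi arrays. Larger differences were found for Irf8 (4.43 ± 0.31, adjusted p = 9.4e-10) and Klf4 (4.15 ± 0.58), which take part in monocyte and dendritic cell development, for Id2 (3.78 ± 0.47), an inhibitor of E proteins, and for Gfi1 (3.63 ± 0.30), a repressor needed for neutrophils. Cebpd (2.63), Bcl6 (1.82), Cebpb (1.68), Klf6 (1.65), Irf1 (1.56), Nfil3 (1.45) and Hlx (1.03) rose as well. Jun (1.57), Fos (1.54) and Egr1 (-1.18) were not called (adjusted p = 0.17, 0.18 and 0.27), and all 3 passed with the replicate block (adjusted p = 0.0015, 7.8e-05 and 0.028). Jun and Fos also passed without the block in fits of fewer arrays. With the 6 arrays alone their adjusted p was 4.1e-04 and 7.4e-05, and with the 12 WT arrays alone 0.0019 and 3.8e-05.

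Of 24 measured genes of an erythroid and megakaryocyte transcription factor list, 12 were lower in GFPhi cells and 3 higher (median -0.76). Gata1 had 7.49, 7.50 and 7.62 in GFPhi cells, against 12.22, 12.13 and 12.01 in GFPneg cells, a difference of -4.59 ± 0.45 (adjusted p = 1.6e-07). Klf1 had 6.66, 6.93 and 6.63 in GFPhi cells, against 12.15, 12.16 and 11.998 in GFPneg cells, a difference of -5.36 ± 0.36 (adjusted p = 6.4e-10). The 3 GFPneg arrays lay close together in both genes, and no GFPhi array came near them. The partner of GATA1, Zfpm1 (-3.21 ± 0.28), the repressor gene Gfi1b (-3.14 ± 0.28), Nfia (-3.99 ± 0.12), Sox6 (-2.94), Mllt3 (-2.78), Tal1 (-2.20 ± 0.20), Klf3 (-2.01), Gata2 (-1.49) and Bcl11a (-1.13) fell too. The 3 members that rose were Etv6 (1.36 ± 0.18), the TAL1 relative Lyl1 (1.28 ± 0.27) and Fli1 (1.82 ± 0.56, adjusted p = 0.026), known from megakaryocytes. Fli1 was the least stable of them, and its call was lost when GFPhi replicate 2 or 3 or GFPneg replicate 1 or 3 was left out (adjusted p = 0.053 to 0.15). Other factors of these lineages were not called, among them Lmo2 (-0.40, 95% interval -0.90 to 0.11), Nfe2 (-0.20, -0.48 to 0.07) and Myb (-0.09, -0.27 to 0.09). Myb, a factor of early progenitors of all lineages, averaged 13.56 ± 0.07 in GFPhi cells and 13.66 ± 0.03 in GFPneg cells (SD, n = 3 each).

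Set beside the 2 WT LSK populations of the study, which hold stem cells and multipotent progenitors and were not tested against LK cells here, these genes took different courses. Irf8 averaged 11.41 ± 0.43 in LK GFPhi, 6.98 ± 0.35 in LK GFPneg, 10.14 ± 0.71 in LSK GFPhi and 7.52 ± 0.33 in LSK GFPneg-lo cells (SD, n = 3 arrays each). Gata1 averaged 7.54 ± 0.07 in LK GFPhi, 12.12 ± 0.10 in LK GFPneg, 7.69 ± 0.26 in LSK GFPhi and 10.53 ± 0.60 in LSK GFPneg-lo cells. Irf8 was thus at its highest in LK GFPhi cells and Gata1 in LK GFPneg cells, with LSK GFPhi cells nearest to LK GFPhi cells for both. Klf4 averaged 9.38 ± 0.34 in LK GFPhi, 5.23 ± 0.26 in LK GFPneg, 7.22 ± 0.16 in LSK GFPhi and 7.35 ± 0.29 in LSK GFPneg-lo cells, so it lay above both LSK populations in LK GFPhi cells and below both in LK GFPneg cells. Gfi1 averaged 9.78 ± 0.48 in LK GFPhi, 6.15 ± 0.27 in LK GFPneg, 9.89 ± 0.33 in LSK GFPhi and 9.56 ± 0.45 in LSK GFPneg-lo cells, and its LK GFPhi, LSK GFPhi and LSK GFPneg-lo means lay within about 1 SD of each other while LK GFPneg cells were lower. Gata2 averaged 9.82 ± 0.28 in LK GFPhi, 11.31 ± 0.10 in LK GFPneg, 10.59 ± 0.07 in LSK GFPhi and 12.03 ± 0.04 in LSK GFPneg-lo cells, in the order LSK GFPneg-lo, LK GFPneg, LSK GFPhi, LK GFPhi from high to low.

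**Figure D3:**
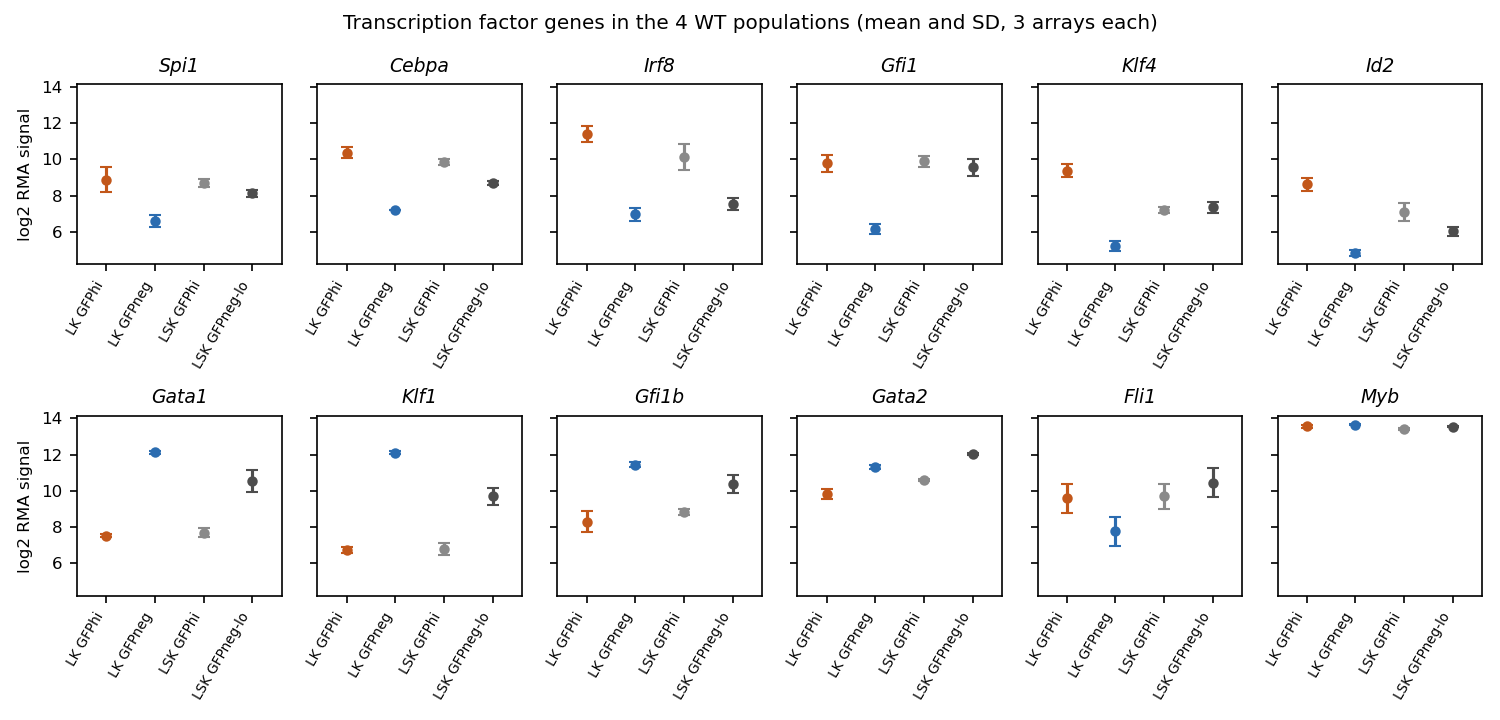
Mean log2 RMA signal (y axis) of 12 transcription factor genes in the 4 WT populations (x axis), with the SD of 3 arrays as error bars. Irf8, Klf4, Id2 and Cebpa are highest in LK GFPhi cells, Gata1, Klf1 and Gfi1b are highest in LK GFPneg cells, and Myb is level.

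Receptor genes followed the same division. Of 20 myeloid colony stimulating factor and cytokine receptor genes, 13 were higher in GFPhi cells and 1 was lower (median 1.39). Csf1r, the receptor of macrophage colony stimulating factor, had 12.69, 12.96 and 12.52 in GFPhi cells, against 7.64, 7.60 and 7.58 in GFPneg cells, a difference of 5.12 ± 0.24 (34.8-fold, adjusted p = 3.4e-12). Csf3r, the receptor of granulocyte colony stimulating factor, differed less, with 9.78, 9.59 and 9.67 in GFPhi cells, against 7.58, 8.12 and 8.37 in GFPneg cells (1.65 ± 0.17, adjusted p = 3.0e-07). The groups did not overlap in either gene. Among the receptor chains for interleukin 3 and GM-CSF, the beta chain genes Csf2rb (4.62 ± 0.25) and Csf2rb2 (2.41 ± 0.30) rose more than the alpha chain genes Csf2ra (1.12 ± 0.17) and Il3ra (0.99 ± 0.23). Csf2rb and Csf2rb2 are close copies whose probe sets may share signal, and the differences between chains were not tested. Both chains of the interleukin 6 receptor rose, Il6st (4.29 ± 0.34) and Il6ra (3.47 ± 0.51), as did Flt3 (4.15 ± 0.29), both tumor necrosis factor receptor genes, Tnfrsf1b (1.99) and Tnfrsf1a (1.88), and Il1r1 (1.77). The interferon gamma receptor chains moved in opposite directions, Ifngr2 by 0.66 ± 0.12 (adjusted p = 3.3e-04) and Ifngr1 by -0.86 ± 0.16 (adjusted p = 4.2e-04).

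Of 14 measured erythroid and megakaryocyte receptor and surface genes, 10 were lower in GFPhi cells and 0 higher (median -1.62), against 12 lower and 1 higher, Cd47, with the replicate block. Cd47 was also called higher with the 6 arrays alone (adjusted p = 0.031) and with the 12 WT arrays alone (adjusted p = 0.040). Epor, the erythropoietin receptor gene, had 7.74, 7.64 and 7.55 in GFPhi cells, against 10.37, 10.79 and 10.85 in GFPneg cells, a difference of -3.02 ± 0.15 (adjusted p = 5.8e-12). The GFPhi arrays were all far below the GFPneg arrays. The transferrin receptor genes differed in size of change, with Tfr2 at -3.93 ± 0.35 and Tfrc at -1.18 ± 0.22, and Icam4 (-2.97) and Cd36 (-2.05) fell as well. Kit, which defines the LK gate, had 12.02, 11.003 and 11.91 in GFPhi cells, against 12.60, 12.30 and 12.90 in GFPneg cells. It did not overlap between the groups, was not called (-0.95 ± 0.38, adjusted p = 0.094) and passed with the replicate block (adjusted p = 0.0011).

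Among 15 surface genes commonly used to sort progenitors, 7 were higher and 4 lower in GFPhi cells. Cd34, which by the usual scheme is carried by GMP and missing on MEP, had 12.46, 12.04 and 12.29 in GFPhi cells, against 7.05, 6.17 and 7.49 in GFPneg cells (5.36 ± 0.40, adjusted p = 2.6e-09). Fcgr3, the Fc receptor gene whose product marks GMP, had 9.23, 6.63 and 8.37 in GFPhi cells, against 6.31, 5.75 and 6.04 in GFPneg cells (2.04 ± 0.38, adjusted p = 3.9e-04, and 0.063 in a fit of the 6 arrays alone). Both were higher on all 3 GFPhi arrays, and GFPhi replicate 2 was the lowest of them for Fcgr3. Cd93 (4.45), Cd27 (3.34) and Il7r (3.17) rose with them, while Slamf1 (-1.63), the integrin gene Itga2b (-1.33), Cd9 (-0.92) and Eng (-0.61) fell.

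Genes of the primary granule list were higher in GFPhi cells almost throughout. The list holds the proteases and peroxidase that GMP begin to store, and also other genes, such as Anxa3, Serpinb1a, Plac8 and Gstm1. Of 17 measured, 16 were higher and 0 lower, with a median of 3.93, the highest of the 34 lists, against -0.00034 over all genes. Mpo, the myeloperoxidase gene, had 14.01, 13.82 and 13.99 in GFPhi cells, against 9.47, 8.13 and 9.83 in GFPneg cells, a difference of 4.79 ± 0.31 (27.7-fold, adjusted p = 4.1e-10). Elane, the neutrophil elastase gene, had 12.16, 9.94 and 11.71 in GFPhi cells, against 6.99, 6.87 and 7.26 in GFPneg cells, a difference of 4.23 ± 0.41 (18.8-fold, adjusted p = 1.2e-07). The GFPhi arrays exceeded the GFPneg arrays in both, and GFPhi replicate 2 was the lowest GFPhi array for Elane. Prtn3 (5.39 ± 0.27, adjusted p = 9.5e-12), the gene of proteinase 3, the annexin gene Anxa3 (4.82), the haptoglobin gene Hp (4.58), the protease inhibitor gene Serpinb1a (4.46), Igsf6 (3.95), Ms4a3 (3.45), Cst7 (2.93), Gstm1 (2.32), Nkg7 (1.91), Plac8 (1.60) and Ctsc (1.26), which encodes the activator of granule proteases, rose too. The lysozyme genes Lyz1 (3.93) and Lyz2 (2.73) are near-identical and may share signal, and Lyz1 was at 0.22 and not called where probe sets ending in _x_at or _s_at were left out. Srgn, the gene of the granule proteoglycan serglycin, was not called (0.27, adjusted p = 0.25, 0.038 with the replicate block). The mean signal of the list was 12.07, 10.90 and 11.86 on GFPhi replicates 1, 2 and 3, against 8.19, 7.90 and 8.38 on GFPneg replicates 1, 2 and 3, so GFPhi replicate 2 was the lowest GFPhi array and still above every GFPneg array. In bulk samples of this kind, fewer cells of a type and less RNA per cell cannot be told apart.

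The promoters of 4 of these protease and peroxidase genes are shown because their products define the GMP and because each holds the letters GAGGAAG, a core that PU.1 is known to recognize. They are the 250 bases before an annotated start site, from RefSeq in build GRCm38.p6, written 5′ to 3′ on the gene's strand, with the match in capitals: Ctsg (chr14:56102575-56102824, minus strand), Prtn3 (chr10:79879417-79879666, plus strand), Elane (chr10:79886062-79886311, plus strand) and Mpo (chr11:87793534-87793783, plus strand).
Ctsg: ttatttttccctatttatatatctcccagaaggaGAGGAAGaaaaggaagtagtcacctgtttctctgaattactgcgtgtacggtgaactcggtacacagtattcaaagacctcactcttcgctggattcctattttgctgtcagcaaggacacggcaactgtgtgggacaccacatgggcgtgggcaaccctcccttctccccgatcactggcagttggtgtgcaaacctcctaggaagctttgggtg
Prtn3: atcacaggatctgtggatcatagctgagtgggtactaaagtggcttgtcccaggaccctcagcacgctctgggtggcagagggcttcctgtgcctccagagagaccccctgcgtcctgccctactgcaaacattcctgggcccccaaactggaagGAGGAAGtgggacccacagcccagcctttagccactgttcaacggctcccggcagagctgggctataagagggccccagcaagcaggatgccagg
Elane: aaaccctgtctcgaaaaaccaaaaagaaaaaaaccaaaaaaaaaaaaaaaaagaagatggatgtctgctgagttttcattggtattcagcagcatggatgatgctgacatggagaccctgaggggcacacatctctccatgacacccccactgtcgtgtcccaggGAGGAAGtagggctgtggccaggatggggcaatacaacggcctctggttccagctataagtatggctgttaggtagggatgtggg
Mpo: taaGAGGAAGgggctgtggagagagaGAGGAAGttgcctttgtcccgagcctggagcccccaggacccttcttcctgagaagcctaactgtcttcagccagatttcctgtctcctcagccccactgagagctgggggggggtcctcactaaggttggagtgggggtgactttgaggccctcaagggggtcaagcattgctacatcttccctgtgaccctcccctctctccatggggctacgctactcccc
The matches begin 216, 95 and 85 bases before the start site in Ctsg, Prtn3 and Elane, and 247 and 224 bases before it in Mpo. Start sites were matched for 14452 of the 18193 genes, in 18109 windows of 300 bases (250 before and 50 after a start). GAGGAAG was found on either strand in 13.5% of all windows, in 17.5% of those of genes called higher in GFPhi cells and in 11.6% of those of genes called lower. Among the 25 largest rises it was in 10 of 29 windows (34.5%), and among the 25 largest falls in 1 of 31 (3.23%). The C/EBP letters TTGCNNAA were in 9.39% of all windows, 9.95% of those called higher and 7.66% of those called lower, and in 1 of 29 windows of the largest rises. A match describes the letters and not a bound site.

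Genes of later neutrophil stages differed far less. Of 17 measured mature neutrophil genes, 4 were higher in GFPhi cells and 0 lower, and their median was 0.08. The 4 were Padi4 (1.55 ± 0.27), which citrullinates histones, the leukotriene receptor gene Ltb4r1 (1.21 ± 0.22), the collagenase gene Mmp8 (0.62 ± 0.12) and Lcn2 (0.94 ± 0.30). Lcn2 was close to the threshold, and its call was lost when GFPhi replicate 1 or 3 or GFPneg replicate 1, 2 or 3 was left out (adjusted p = 0.057 to 0.23). The secondary granule genes Ltf (0.06) and Camp (0.02) were not called, nor were S100a8 (0.72) and S100a9 (-0.09). Ltf averaged 6.84 ± 0.09 in GFPhi cells and 6.79 ± 0.14 in GFPneg cells, and S100a9 averaged 4.83 ± 0.28 in GFPhi cells and 4.92 ± 0.07 in GFPneg cells (SD, n = 3 each). Whether these probe sets respond was not tested.

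Monocyte and macrophage genes were higher in GFPhi cells in 21 of 24 measured cases, and 0 were lower (median 2.49). Ccr2, the chemokine receptor gene of inflammatory monocytes, had 12.15, 11.81 and 11.98 in GFPhi cells, against 6.47, 6.60 and 6.66 in GFPneg cells (5.40 ± 0.20, adjusted p = 1.7e-13). Ly86, whose protein (MD-1) binds the Toll-like receptor relative RP105, had 11.80, 12.06 and 11.74 in GFPhi cells, against 6.95, 6.72 and 6.83 in GFPneg cells (5.04 ± 0.30, adjusted p = 8.3e-11). Neither gene overlapped between the groups. The pore-forming protein gene Mpeg1 (5.12), the related neighbours Ms4a6b (5.06) and Ms4a6c (5.05), whose probe sets may share signal, the signaling adaptor genes Tyrobp (4.48) and Fcer1g (3.04), Cd68 (2.98), the lectin genes Lgals3 (2.38) and Clec7a (2.22), Cd14 (2.18), Cx3cr1 (1.96) and the macrophage marker Adgre1 (1.25) rose. So did the Toll-like receptor genes Tlr4 (1.30), Tlr2 (1.29) and Tlr7 (0.79). The markers of mature macrophages Mrc1 (-0.01) and Fcgr1 (0.04) were not called. The list's mean was 9.54, 9.20 and 9.34 on GFPhi replicates 1, 2 and 3, against 6.47, 6.39 and 6.37 on GFPneg replicates 1, 2 and 3.

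Of 6 measured subunits of the phagocyte NADPH oxidase, which makes superoxide, 5 rose and 0 fell. Cybb, the catalytic subunit gene, had 9.55, 7.32 and 9.14 in GFPhi cells, against 5.21, 5.24 and 5.26 in GFPneg cells (3.43 ± 0.47, adjusted p = 1.1e-05). The cytosolic subunit gene Ncf1 had 11.41, 11.52 and 11.40 in GFPhi cells, against 6.99, 6.62 and 6.79 in GFPneg cells (4.64 ± 0.18, adjusted p = 3.4e-13). Every GFPhi array was above every GFPneg array in both, with GFPhi replicate 2 the lowest for Cybb. Ncf4 (3.89), Rac2 (1.73) and Cyba (0.65) rose too, while the ubiquitous Rac1 (0.20) was not called. Of 14 lysosomal and cathepsin genes 8 rose and 1 fell. Ctss (4.98 ± 0.35) and Ctsh (4.31 ± 0.36) rose, as did the glycosidase genes Hexa (1.65) and Man2b1 (1.31), and the 1 that fell was Ctsl (-2.20 ± 0.45, adjusted p = 0.0011). Ctsd, of the aspartic protease cathepsin D, was not called (-0.18). Of 20 leukocyte integrin and adhesion genes 10 rose and 2 fell. Besides Ccr2, the largest rises were in Ccr1 (2.97), Icam1 (2.63), the integrin gene Itgal (2.48), Cxcr4 (2.24) and the selectin ligand gene Selplg (1.89), and the integrin gene Itga6 fell (-1.09 ± 0.19). Itga4 fell by less (-0.72), and its call was lost when GFPneg replicate 1 was left out (adjusted p = 0.078).

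Genes of early lymphoid cells were also higher in the GMP fraction. Of 21 measured, 13 were higher in GFPhi cells and 1 lower (median 1.18). Dntt, which encodes terminal transferase, had 12.79, 13.11 and 12.76 in GFPhi cells, against 7.15, 7.18 and 6.98 in GFPneg cells, a difference of 5.78 ± 0.48 (55.1-fold, adjusted p = 1.2e-08). Il7r, the interleukin 7 receptor gene, had 9.74, 10.25 and 9.99 in GFPhi cells, against 6.98, 6.80 and 6.70 in GFPneg cells, a difference of 3.17 ± 0.26 (adjusted p = 9.9e-09). Both genes were separated on all arrays. Satb1 (5.57 ± 0.31), the immunoglobulin heavy chain gene Ighm (4.29 ± 0.36), Flt3 (4.15 ± 0.29), Notch1 (3.45 ± 0.28), Cd79b (2.91) and Lsp1 (2.55) rose. So did the recombinase genes Rag1 (1.68 ± 0.12, adjusted p = 1.0e-09) and Rag2 (0.84 ± 0.11). For Ighm another probe set was at 4.39, but its remaining ones lay between -0.15 and 0.09 and were not called. With the mean of all its probe sets Ighm was at 0.78, still called. The B lineage regulators Ebf1 (0.08, 95% interval -0.15 to 0.31) and Pax5 (0.10, -0.18 to 0.38) and the surrogate light chain gene Igll1 (0.22) were not called, and Ebf1 averaged 5.25 ± 0.12 in GFPhi cells and 5.16 ± 0.15 in GFPneg cells (SD, n = 3 each). The 1 member that fell was Cnr2 (-3.05 ± 0.27), a cannabinoid receptor gene of B cells. In LSK GFPhi cells, which the labels call LMPP, Dntt averaged 13.28 ± 0.15. The list's mean was 7.98, 8.22 and 8.03 on GFPhi replicates 1, 2 and 3, against 6.38, 6.33 and 6.44 on GFPneg replicates 1, 2 and 3, and whether lymphoid-primed cells inside the GFPhi gate carry this signal was not tested.

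MHC class II genes, which present antigen, were higher in GFPhi cells in 7 of 9 measured cases and lower in 0. H2-Aa had 10.44, 11.10 and 10.32 in GFPhi cells, against 6.31, 6.30 and 5.91 in GFPneg cells (4.45 ± 0.47, adjusted p = 4.6e-07). H2-Ob (2.74 ± 0.25), H2-DMa (1.90), H2-Ab1 (1.58, and 0.48 and not called without probe sets ending in _x_at or _s_at) and the invariant chain gene Cd74 (1.52) rose with it, and their master regulator Ciita was not called (0.20, 95% interval -0.03 to 0.43). The number called higher was 4 when GFPhi replicate 1 or 3 or GFPneg replicate 3 was left out. Of these, Cd74 was close to the threshold, and its call was lost when GFPhi replicate 1, 2 or 3 or GFPneg replicate 3 was left out (adjusted p = 0.053 to 0.1). Of 11 dendritic cell genes 4 rose and 1 fell. Those that rose were Irf8 and Id2, described above, Itgax (1.18) and Tcf4 (1.07), while Zbtb46, a factor of classical dendritic cells that is also known from red cell progenitors, fell by 2.55 (adjusted p = 6.6e-09). The markers of mature dendritic cells Xcr1 (0.18), Siglech (0.03) and Cd209a (0.07) were not called. Of 12 T and NK lineage genes 0 were called (1 with the replicate block, Thy1), with means of 4.33 to 9.18 in GFPhi cells and 4.28 to 9.12 in GFPneg cells.

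Red cell membrane and carbonic anhydrase genes were lower in GFPhi cells in 16 of 21 measured cases and higher in 1, with the lowest list median, -2.02. Ermap, an erythroid adhesion receptor gene, had 6.78, 7.68 and 7.82 in GFPhi cells, against 13.02, 13.06 and 12.93 in GFPneg cells (-5.58 ± 0.36, adjusted p = 3.1e-10). The blood group gene Kel had 6.40, 7.01 and 6.49 in GFPhi cells, against 10.78, 11.15 and 11.10 in GFPneg cells (-4.38 ± 0.23, adjusted p = 1.9e-11). Neither came near overlap between the groups. Cldn13 (-4.41), Tspan33 (-4.26), the Rh blood group gene Rhd (-4.14), Car2 (-3.58), the urea transporter gene Slc14a1 (-2.81) and the ankyrin gene Ank1 (-2.02 ± 0.21) fell as well. The adducin genes Add2 (-1.58) and Add1 (-0.91) and the spectrin gene Sptb (-0.45), of the membrane skeleton, fell by less, and 4 genes were not called, among them the band 3 gene Slc4a1 (-0.15) and Tmod1 (-0.02). The 1 member that rose was Slc2a1, the gene of the glucose transporter GLUT1, with 7.83, 7.99 and 7.96 in GFPhi cells, against 5.22, 5.56 and 5.26 in GFPneg cells (2.58 ± 0.22, adjusted p = 1.8e-08).

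The promoters of 4 genes of the erythroid side are shown because each holds, near its start, a core that GATA factors are known to recognize: the letters AGATAA or AGATAG, and likewise TGATAA or TGATAG, on either strand. They are again 250 bases before a RefSeq start site in build GRCm38.p6, 5′ to 3′ on the gene's strand, with the match in capitals: Rhag (chr17:40810899-40811148, plus strand), Klf1 (chr8:84901732-84901981, plus strand), Ermap (chr4:119189996-119190245, minus strand) and Epor (chr9:21963577-21963826, minus strand).
Rhag: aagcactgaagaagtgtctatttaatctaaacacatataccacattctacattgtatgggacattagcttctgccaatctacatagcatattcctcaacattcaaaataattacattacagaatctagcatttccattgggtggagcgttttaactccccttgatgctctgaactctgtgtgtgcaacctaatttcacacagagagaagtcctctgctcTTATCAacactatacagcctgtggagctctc
Klf1: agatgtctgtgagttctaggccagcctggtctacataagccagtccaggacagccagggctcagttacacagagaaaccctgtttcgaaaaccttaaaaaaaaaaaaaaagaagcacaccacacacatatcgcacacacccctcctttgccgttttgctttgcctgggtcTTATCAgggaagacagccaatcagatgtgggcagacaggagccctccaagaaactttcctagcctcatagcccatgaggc
Ermap: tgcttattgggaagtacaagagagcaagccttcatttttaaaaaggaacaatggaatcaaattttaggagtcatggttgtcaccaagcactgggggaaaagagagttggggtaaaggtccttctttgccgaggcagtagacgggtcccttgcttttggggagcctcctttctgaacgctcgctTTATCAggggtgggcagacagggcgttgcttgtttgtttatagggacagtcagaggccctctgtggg
Epor: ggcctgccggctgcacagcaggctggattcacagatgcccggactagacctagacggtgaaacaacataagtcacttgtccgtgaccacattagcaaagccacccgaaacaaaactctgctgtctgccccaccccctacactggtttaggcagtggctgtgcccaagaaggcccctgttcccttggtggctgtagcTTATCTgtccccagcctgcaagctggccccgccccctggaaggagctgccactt
All 4 matches lie on the other strand, so that they read TTATCA or TTATCT here, and begin 31, 80, 67 and 54 bases before the start site in Rhag, Klf1, Ermap and Epor. These GATA letters were in 22.3% of all windows, 19.4% of those of genes called higher in GFPhi cells and 20.7% of those of genes called lower. Among the 25 largest falls they were in 14 of 31 windows (45.2%), and among the 25 largest rises in 7 of 29 (24.1%). The KLF letters CCACACCC or CCCCACCC were in 15.6% of all windows, and in 7 of 31 windows (22.6%) of the largest falls and 7 of 29 (24.1%) of the largest rises.

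Heme synthesis genes moved together apart from the first step. Of 11 measured, 9 were lower in GFPhi cells and 1 higher (median -1.19). Cpox, the coproporphyrinogen oxidase gene, had 7.82, 8.21 and 8.51 in GFPhi cells, against 10.73, 11.65 and 11.62 in GFPneg cells (-3.15 ± 0.28, adjusted p = 3.4e-08). The other enzymes of the path, Alad (-2.07 ± 0.24), Urod (-1.56 ± 0.20), Fech (-1.37 ± 0.11) and Uros (-1.15), and the mitochondrial glycine carrier Slc25a38 (-1.48), fell too. Alas1, the housekeeping form of the first and rate-limiting enzyme, was the 1 that rose, with 10.86, 9.17 and 10.97 in GFPhi cells, against 8.13, 8.44 and 8.77 in GFPneg cells (1.89 ± 0.33, adjusted p = 2.1e-04). Its erythroid form Alas2 averaged 5.07 ± 0.18 in GFPhi cells and 5.40 ± 0.20 in GFPneg cells (SD, n = 3 each) and was not called (adjusted p = 0.18, 0.02 with the replicate block). Of 13 iron handling genes 5 fell and 1 rose. The iron exporter gene Slc40a1 (-4.15 ± 0.35), the importer gene Slc11a2 (-2.11 ± 0.19), Tfrc (-1.18), Glrx5 (-0.95) and the iron regulatory protein gene Aco1 (-0.79) fell, and the ferritin receptor gene Ncoa4 (1.06 ± 0.27) rose, though its call was lost when GFPhi replicate 1 or GFPneg replicate 2 was left out (adjusted p = 0.053 to 0.056). Slc11a1, the phagosome iron transporter gene of macrophages, was not called (0.12).

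No globin gene was called. Of 6 measured 0 were called (1 lower with the replicate block, Hbb-bh1), and their group means ran from 5.38 to 6.23 in GFPhi cells and from 5.39 to 6.30 in GFPneg cells. Hba-a1 had a difference of -0.01 (95% interval -0.25 to 0.23), and Hbb-b2 one of -0.07 (-0.31 to 0.17). The alpha and beta globin genes are near-identical copies, the other globin genes of the list were not analysed here, and whether these probe sets respond was not tested. Of 19 antioxidant and glutathione genes 9 fell and 3 rose. Gstm5 (-4.09 ± 0.28), Gclm (-2.49 ± 0.18) and Gclc (-0.79), which encode the 2 chains of the enzyme that starts glutathione synthesis, and the peroxiredoxin gene Prdx2 (-0.86) fell. The microsomal transferases Mgst1 (5.15 ± 0.33) and Mgst2 (2.65 ± 0.23) rose, and so did Gstm1.

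Megakaryocyte and platelet genes were mixed. Of 25 measured, 8 were lower in GFPhi cells and 4 higher (median -0.23). Pf4, the platelet factor 4 gene, had 7.09, 9.18 and 9.48 in GFPhi cells, against 10.72, 11.18 and 11.10 in GFPneg cells (-2.41 ± 0.54, adjusted p = 0.0024). Vwf, the von Willebrand factor gene, had 4.94, 5.40 and 5.45 in GFPhi cells, against 7.23, 8.41 and 8.14 in GFPneg cells (-2.66 ± 0.52, adjusted p = 7.2e-04). The groups stayed apart in both, with 1 of the 3 arrays well below the others for Pf4 in GFPhi cells and for Vwf in GFPneg cells. Gp5 (-2.23 ± 0.23), the thrombin receptor gene F2r (-1.60 ± 0.27), Mmrn1 (-1.51), Itga2b (-1.33 ± 0.24) and Cd9 (-0.92) fell. Plek (1.20 ± 0.35), a protein kinase C substrate of platelets and leukocytes, rose, as did Itgb3 (0.70 ± 0.22), the partner chain of the Itga2b product, the myosin kinase gene Mylk (0.70, and 0.21 and not called with the mean of all its probe sets) and Rgs18 (0.56). The number called higher was 1 when GFPhi replicate 3 or GFPneg replicate 1 was left out and 2 when GFPhi replicate 1 or 2 or GFPneg replicate 2 was left out. Genes of mature platelets such as Gp6 (0.02), Gp1bb (-0.01) and Ppbp (-0.02) were not called. The list's mean was 7.15, 7.54 and 7.52 on GFPhi replicates 1, 2 and 3, against 7.67, 7.91 and 8.03 on GFPneg replicates 1, 2 and 3.

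**Figure D4:**
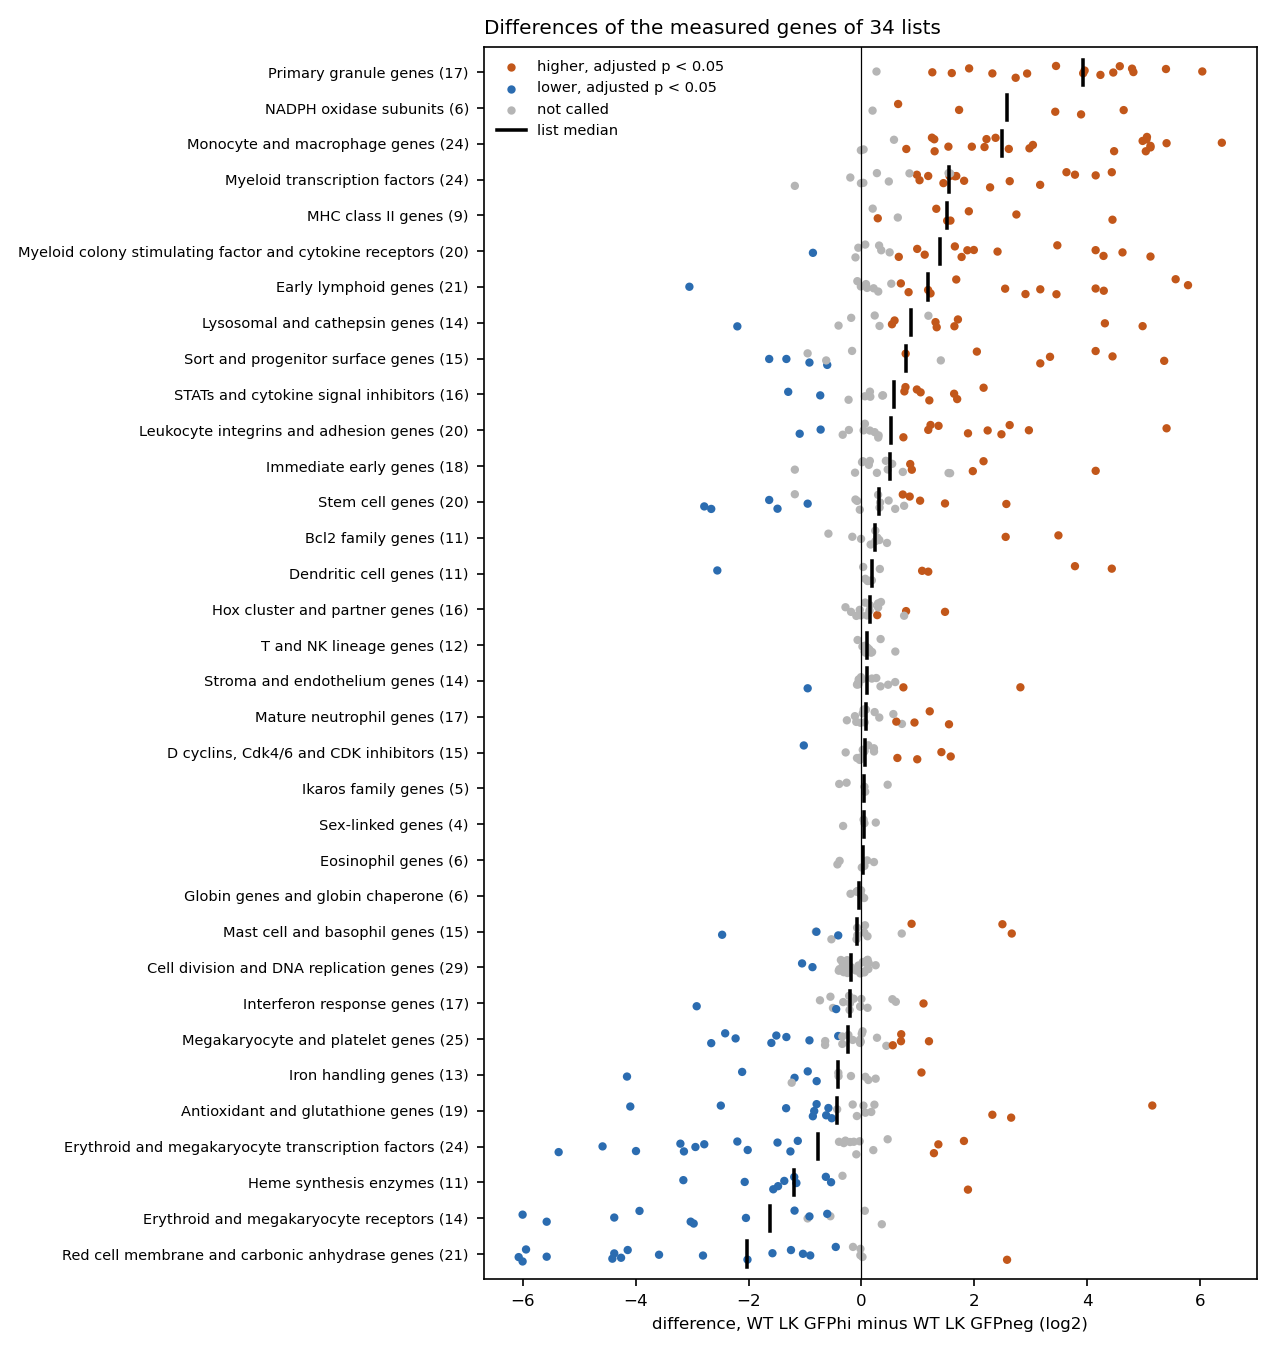
Log2 difference, WT LK GFPhi minus WT LK GFPneg (x axis), of each measured gene of 34 gene lists (y axis, number of genes in brackets), colored by call, with the list median as a bar. Lists are ordered by median, from primary granule genes at 3.93 to red cell membrane and carbonic anhydrase genes at -2.02, and several lists hold called genes on both sides of 0.

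Of the other lineages that a progenitor gate could hold, 15 mast cell and basophil genes had 3 higher and 3 lower in GFPhi cells. Mcpt8, a basophil protease gene, had 9.44, 8.49 and 9.16 in GFPhi cells, against 6.09, 6.47 and 6.54 in GFPneg cells (2.66 ± 0.26, adjusted p = 1.5e-07). Hdc, the histidine decarboxylase gene, had 9.77, 8.41 and 9.58 in GFPhi cells, against 6.55, 6.69 and 7.03 in GFPneg cells (2.50 ± 0.50, adjusted p = 9.3e-04). Both were higher on all GFPhi arrays, and Mitf (0.89) rose as well. Slc18a2 (-2.47 ± 0.35), which loads amines into vesicles, and Gzmb (-0.80) were among those that fell. The Fc epsilon receptor genes Fcer1a (-0.53) and Ms4a2 (-0.81) and the mast cell proteases Cma1 (-0.07), Tpsb2 (-0.08) and Mcpt4 (0.11) were not called. The list's mean was 6.81, 6.52 and 6.70 on GFPhi replicates 1, 2 and 3, against 6.58, 6.37 and 6.73 on GFPneg replicates 1, 2 and 3. Of 6 eosinophil genes 0 were called, and Epx averaged 5.36 ± 0.19 in GFPhi cells and 5.35 ± 0.24 in GFPneg cells (SD, n = 3 each). Of 14 stroma and endothelium genes 2 rose and 1 fell. The receptor gene Pdgfrb had 9.02, 10.66 and 9.70 in GFPhi cells, against 6.82, 7.38 and 6.72 in GFPneg cells (2.82 ± 0.33, adjusted p = 2.0e-06), with no overlap. Pecam1 was at 0.74 and Tek at -0.95. The number called lower was 0 when GFPhi replicate 1, 2 or 3 or GFPneg replicate 1 or 3 was left out. The endothelial genes Cdh5 (-0.06), and Kdr (-0.05), Cxcl12 (-0.01) and the collagen genes Col1a1 (0.47) and Col1a2 (-0.08) were not called.

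Stem cell genes showed no common direction, with 5 of 20 higher and 5 lower in GFPhi cells. Erg (2.57 ± 0.26, adjusted p = 2.1e-07) and Hoxa9 (1.48 ± 0.21) rose most, and Mllt3, Vwf, Slamf1 (-1.63 ± 0.24), Gata2 and Tek fell. The number that rose was 3 when GFPhi replicate 2 or GFPneg replicate 2 was left out. Among 16 Hox cluster and partner genes 3 rose and 0 fell: Hoxa9, Hoxa7 (0.79 ± 0.16) and Hoxa5 (0.28), all of the A cluster. Hoxa5 was close to the threshold, and its call was lost when GFPhi replicate 2 or 3 or GFPneg replicate 1, 2 or 3 was left out (adjusted p = 0.05 to 0.23). Of 5 Ikaros family genes 0 were called. Ikzf1, whose regulatory sequence drives the reporter used for the sort, had 11.73, 11.48 and 11.52 in GFPhi cells, against 11.80, 11.73 and 11.99 in GFPneg cells. The difference was -0.26 ± 0.36 (95% interval -1.02 to 0.49, adjusted p = 0.78) and was not called. This SE pools the spread of all arrays of the fit, KO arrays included, and is wide beside the spread within these 2 groups. The missing call therefore does not decide whether the message of the endogenous gene differed a little between the fractions split by GFP. Helios, the Ikzf2 product, is a close relative, and Ikzf2 was at 0.46 (adjusted p = 0.12).

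Genes of cell division differed little. Of 29 cell division and DNA replication genes 2 were lower in GFPhi cells, the centromeric histone gene Cenpa (-1.05 ± 0.16) and the replication licensing gene Cdc6 (-0.87 ± 0.21), and 0 were higher (1 with the replicate block, E2f1). Mki67, a marker of cycling cells, had 12.72, 12.44 and 12.81 in GFPhi cells, against 12.89, 12.70 and 13.11 in GFPneg cells and was not called (-0.25 ± 0.26, 95% interval -0.79 to 0.30). Among 15 D cyclin, Cdk4/6 and CDK inhibitor genes 4 rose and 1 fell. Ccnd2 (0.99 ± 0.14), the inhibitors Cdkn1a (1.42 ± 0.26) and Cdkn2d (0.64) and Ccnd1 (1.58 ± 0.51) rose, of which Ccnd1 was the least stable since its call was lost when any of the 6 arrays was left out (adjusted p = 0.063 to 0.093). The retinoblastoma gene Rb1 fell (-1.02 ± 0.15). Ccnd3 (0.12) and Cdk4 (0.05) were not called. Of 11 Bcl2 family genes 2 rose (5 with the replicate block) and 0 fell. Bcl2, the survival gene, had 10.94, 11.62 and 11.01 in GFPhi cells, against 7.47, 7.69 and 7.95 in GFPneg cells (3.49 ± 0.30, adjusted p = 1.8e-08), and the death inducer Pmaip1 rose by 2.55 ± 0.27. Bcl2l1, which encodes the survival protein of late erythroid cells BCL-XL, was not called (0.25, 95% interval -0.23 to 0.72), nor was Mcl1 (0.32, adjusted p = 0.14, 0.03 with the replicate block).

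Of 16 genes of STATs, Janus kinases and cytokine signal inhibitors 8 rose and 2 fell. Stat4 (2.16 ± 0.38), the kinase gene Pim1 (1.64 ± 0.26), Sh2b3 (1.20), Jak3 (1.05), Cbl (0.78) and Ptpn6 (0.76) were among those that rose. Those that fell act downstream of the erythropoietin receptor among others, Jak2 (-0.73 ± 0.14, adjusted p = 5.7e-04) and Stat5a (-1.30 ± 0.38, adjusted p = 0.019), and the arrays of Stat5a overlapped between the groups. Stat5a was also close to the threshold, and its call was lost when GFPhi replicate 2 or 3 or GFPneg replicate 1 or 3 was left out (adjusted p = 0.052 to 0.13). Of 17 interferon response genes 1 rose and 2 fell (4 with the replicate block, and 1 when GFPhi replicate 1 or 2 or GFPneg replicate 2 or 3 was left out), shares close to the background. The exonuclease gene Isg20 was at -2.92 ± 0.35 and Ifitm3 at 1.10 ± 0.14. Of 18 immediate early genes, which can rise during cell handling, 5 rose (8 with the replicate block, and 3 when GFPneg replicate 1 or 3 was left out) and 0 fell, among them Klf4, Btg2 (2.16 ± 0.36) and Zfp36 (1.97 ± 0.38). Their mean was 8.22, 8.66 and 8.31 on GFPhi replicates 1, 2 and 3, against 7.56, 7.68 and 7.51 on GFPneg replicates 1, 2 and 3, highest on GFPhi replicate 2, and its part in the differences of Klf4, Jun and Fos was not tested. Of 4 sex-linked genes 0 were called. Xist averaged 12.71 ± 0.69 in GFPhi cells and 12.66 ± 0.61 in GFPneg cells, and Eif2s3y, of the Y chromosome, averaged 9.25 ± 1.16 in GFPhi cells and 9.57 ± 1.28 in GFPneg cells (SD, n = 3 each).

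The same comparison in KO mice uses other arrays than that of WT mice. Both come from 1 fit and share the variance estimate of each gene, so calls in the 2 genotypes are not independent. The interaction tests which differences differ between the genotypes, and strain background differs with genotype as given above. Limma called 4256 genes in KO (23.4%), and 2429 genes were called in the same direction in both genotypes, 71.9% of the WT calls and 57.1% of the KO calls, while 31 were called in opposite directions. All 50 of the largest WT differences were called in KO in the same direction. Mpo differed by 5.88 ± 0.31 in KO and Prtn3 by 5.75 ± 0.27, and Car1 differed by -5.26 ± 0.48 and Klf1 by -4.29 ± 0.36, so both sides of the split were present without Ikaros. The difference itself depended on genotype in 454 genes (2.5%), being more positive in WT for 144 and more negative for 310, and 305 of them were called in WT. With the replicate block 1002 genes passed this interaction, and 281 in a fit of the 12 LK arrays alone. KO GFPhi replicate 3 had 11.39 for Dntt, against 8.48 and 8.45 on KO GFPhi replicates 1 and 2, and the lowest array weight of its group (0.401), and without it 417 genes passed, 155 more positive and 262 more negative in WT.

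Among the 6 most positive interactions were genes that differed more between the fractions in WT than in KO, Dntt among them. Dntt differed by 5.78 ± 0.48 in WT and 2.49 ± 0.48 in KO (WT minus KO 3.29 ± 0.67, adjusted p = 0.0079, 4.27 without KO GFPhi replicate 3, and adjusted p = 0.099 with the 12 LK arrays alone). Pkib, an inhibitor of protein kinase A, differed by 4.68 ± 0.37 in WT and 1.67 ± 0.37 in KO (adjusted p = 0.0022), and the protease gene Bace1 by 4.49 ± 0.30 and 1.50 ± 0.30 (adjusted p = 3.0e-04). The sialic acid hydroxylase gene Cmah was called in WT (2.61 ± 0.24) and not in KO (-0.32 ± 0.24, interaction adjusted p = 2.1e-05). Of 21 early lymphoid genes 6 had a called interaction, against 2.5% of all genes, and the list's median was 1.18 in WT and 0.39 in KO. Clic5 (1.52 ± 0.17 in WT, -1.56 ± 0.17 in KO) and the lipoprotein lipase gene Lpl (0.81 ± 0.40 in WT, adjusted p = 0.21, 0.042 with the replicate block, and -3.14 ± 0.40 in KO) had differences of opposite sign in the 2 genotypes. With the mean of all probe sets of a gene the WT minus KO values of Pkib (1.72), Bace1 (1.07), Cmah (0.865), Clic5 (1.52) and Lpl (2.55) were smaller by over 1.5 times and still called. In Lpl the WT GFPneg cells averaged 6.62 ± 0.12 and the KO GFPneg cells 11.09 ± 0.61 (SD, n = 3 each).

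The 6 most negative interactions were of genes that differed strongly in KO and little in WT. The granule gene Lcn2 had a difference of 0.94 ± 0.30 in WT and 5.59 ± 0.30 in KO (WT minus KO -4.65 ± 0.42, adjusted p = 1.5e-06). The surface glycoprotein gene Thy1 (0.60 ± 0.29 in WT, 4.98 ± 0.29 in KO), Fgd5 (0.33 ± 0.26 and 4.58 ± 0.26), the endothelial cadherin gene Cdh5 (-0.06 ± 0.13 and 4.12 ± 0.13), the adhesion receptor gene Selp (0.44 ± 0.28 and 4.61 ± 0.28) and the eosinophil granule gene Prg2 (-0.39 ± 0.56 and 4.01 ± 0.56) completed them, and none of these 5 was called in WT (Thy1 was with the replicate block, adjusted p = 0.044). Prg2 had 8.27, 10.18 and 11.96 on KO GFPhi replicates 1, 2 and 3, and its WT minus KO value was -4.40 with all arrays and -3.49 without KO GFPhi replicate 3 (adjusted p = 0.0015). For Cdh5 the genotypes differed in the GFPhi cells, which were at 4.90 ± 0.19 in WT and 9.62 ± 0.25 in KO, while the GFPneg cells were at 4.96 ± 0.11 in WT and 5.49 ± 0.27 in KO (SD, n = 3 each). With the mean of all its probe sets the WT minus KO value of Cdh5 was -2.11, still called. A called interaction was found in 3 of 6 eosinophil genes and in 3 of 17 primary granule genes, against 2.5% of all genes. This was not particular to these lists and the early lymphoid list. Called interactions were also found in 7 of 24 monocyte and macrophage genes, 7 of 25 megakaryocyte and platelet genes and 6 of 20 stem cell genes. The sort and the mast cell lists had 4 of 15 each, while 0 of 29 cell division genes and 0 of 19 antioxidant genes had one.

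**Figure D5:**
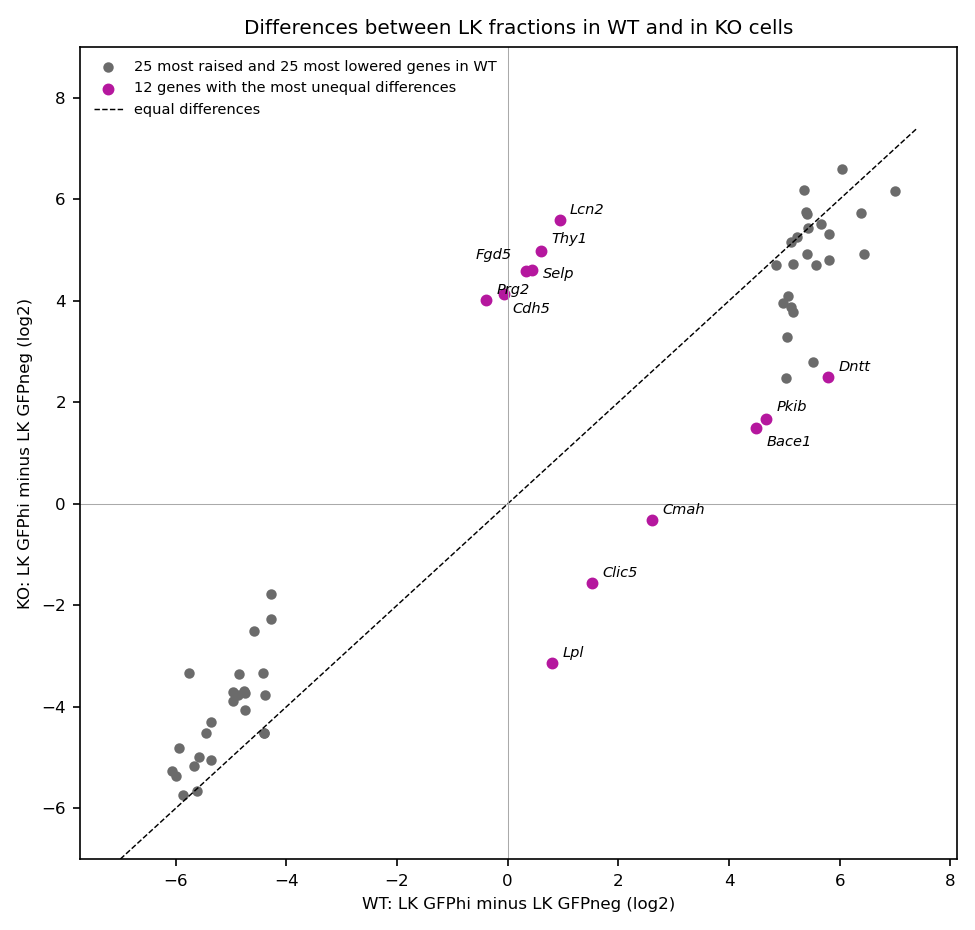
Log2 difference between LK GFPhi and LK GFPneg cells in WT (x axis) and in KO (y axis) for the 25 largest rises and 25 largest falls in WT (gray) and the 12 genes with the most unequal differences (magenta, named), with a dashed line where both are equal. The gray genes lie in the upper right and the lower left, and Lcn2, Thy1, Selp, Fgd5, Cdh5 and Prg2 lie between -0.39 and 0.94 in WT and between 4.01 and 5.59 in KO.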

How the data were processed

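The values were measured on mouse expression arrays, with 6 ug of RNA per sample per the labels' protocols, and deposited by the authors as log2 signals after robust multi-array averaging (RMA), per the submitters' processing notes. No source used here names the software version. Groups were taken from the sample titles. Of 45101 probe sets, 64 were controls, 932 named several symbols and 9160 none, and the brightest of each gene's remaining 34945 (by mean over all 24 arrays) gave 18193 genes. No further background correction or normalization was applied. Limma 3.58.1 in R 4.3.3 was fitted with 8 group means, with WT GFPhi minus WT GFPneg as the comparison and the WT minus KO interaction as a further one. On simulated data with 200 genes changed, the fit for this comparison recovered 37.3%, 77.6% and 98.5% of those changed by 0.5, 1 and 2 (log2), and 4.70% of its calls were false. The simulated errors were independent between arrays, unlike the correlated deviations given next, and fewer genes were changed than were called here. These rates therefore need not hold for the real arrays. Deviations of same-numbered WT arrays from their group means correlated at 0.555, 0.635 and 0.550 (KO 0.397, 0.4995 and 0.169), all above 0.1. Differently numbered arrays correlated at -0.679 to 0.212 in WT and -0.460 to 0.045 in KO, and WT GFPhi replicate 1 with GFPneg replicate 3 (0.212) also passed 0.1. Deviations from a group mean cancel within the group, so positive same-numbered values push the differently numbered ones down. The latter are therefore no separate evidence of pairing. The numbers were taken to pair the samples from the same-numbered values, not from the labels, and the replicate block was run as an alternative. Other alternatives were the arrays fitted, filters on dim and on cross-hybridising probe sets, the mean over probe sets, a trended robust fit, array weights, centring, quantile normalization and leaving out each array. The genes and the 34 lists (540 genes, 484 measured) were chosen with earlier results of these data known. Genes named are the 25 largest called differences each way without overlap of the arrays, list members, the 6 largest interactions each way and up to 5 genes with discordant probe sets. Clone symbols (Rik, Gm numbers, LOC or GenBank-like names) were passed over in these choices. Others are said to be chosen after their values were seen. Promoter letters came from RefSeq.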

Additional observations from a re-analysis of the deposited data

Results flagged for a closer look

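The GFPhi minus GFPneg difference of 60 of the genes named here depended on genotype in limma's interaction test (adjusted p below 0.05). Their interaction values, WT minus KO on the log2 scale, follow by kind. Genotype and strain background cannot be told apart in them, and KO GFPhi replicate 3 had the lowest array weight of its group, as given above.

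Both differences were called, with opposite signs, in 6 genes, whose interaction values were Slc18a2 -3.71, Clic5 3.07, Cd9 -3.05, Itga6 -2.50, Gata2 -2.15 and Itga2b -2.02. Clic5 was higher in GFPhi than in GFPneg cells of WT mice and lower in KO mice, and the other 5 were lower in WT and higher in KO mice. Within this group Gata2 is a transcription factor gene of stem cells, mast cells and megakaryocytes, Itga2b and Itga6 are integrin genes and Cd9 is a tetraspanin gene. The GFPhi minus GFPneg difference ran from -2.47 to 1.52 in WT and from -1.56 to 2.13 in KO mice.

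Genes that were higher in GFPhi cells of both genotypes, and more so in WT, numbered 11, with interaction values of Dntt 3.29, Pkib 3.01, Bace1 2.99, Chdh 2.71, Ly86 2.55, Bcl2 1.84, Flt3 1.78, Ms4a6c 1.77, Gria3 1.53, Itgax 0.86 and Bex6 0.83. They include Dntt and Flt3, active in early lymphoid cells, and the monocyte genes Ly86 and Ms4a6c. Their difference ran from 1.18 to 6.99 in WT and from 0.33 to 6.16 in KO mice. The 15 genes higher in both, and more so in KO, had interaction values of Lcn2 -4.65, Pdgfrb -3.12, Mylk -2.69, Ms4a6d -2.35, Hoxa9 -1.99, Plac8 -1.94, Itgb3 -1.84, Tlr4 -1.71, Cd14 -1.57, Csf2ra -1.32, Cebpd -1.22, Slc2a1 -1.19, Nkg7 -1.10, Lyz1 -1.06 and Rgs18 -1.06. The interaction of Ms4a6d was -0.96 and not called (adjusted p = 0.37) without probe sets ending in _x_at or _s_at. Lcn2, Tlr4, Cd14 and Cebpd of this group are known for neutrophil and monocyte defence. Here the difference ran from 0.56 to 3.93 in WT and from 1.61 to 5.93 in KO mice.

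Genes lower in GFPhi cells of both genotypes numbered 7, with interaction values of Aqp9 -2.51, Slc40a1 -2.29, Paqr9 -2.00, Tfr2 -1.94, Cnr2 -1.73, Aldh1a7 -1.25 and Add1 0.57, and the fall was larger in WT in each of them except Add1, where it was larger in KO. Slc40a1, the iron exporter, and Tfr2, a transferrin receptor, are genes of iron handling. The interaction of Tfr2 was -0.87 and not called (adjusted p = 0.24) without probe sets ending in _x_at or _s_at. The fall ran from -4.96 to -0.91 in WT and from -3.71 to -1.31 in KO mice.

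The difference was called in WT and not in KO for 9 genes, with interaction values of Cmah 2.93, Il7r 2.81, Ms4a4b 2.58, Sox6 -2.32, Mmrn1 -2.29, Rag1 1.64, Cx3cr1 1.38, Ifngr1 -1.10 and Rag2 0.59. Il7r, Rag1 and Rag2 act in early lymphoid cells, and Sox6 in erythroid cells. Across them the difference ran from -2.94 to 3.81 in WT and from -0.62 to 1.24 in KO mice.

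It was not called in WT and was called in KO for the remaining 12, with interaction values of Prg2 -4.40, Thy1 -4.38, Fgd5 -4.25, Cdh5 -4.19, Selp -4.17, Lpl 3.95, Ms4a2 -3.71, Mrc1 -3.65, Epx -3.56, S100a8 -2.75, Fcer1a -2.43 and Ikzf2 -1.04. Prg2 and Epx encode eosinophil granule proteins, Fcer1a and Ms4a2 chains of the IgE receptor of mast cells and basophils, and Cdh5 and Selp adhesion proteins of endothelium. All 12 were higher in GFPhi than in GFPneg cells of KO mice except Lpl, which was lower. Across these genes the difference ran from -0.81 to 0.81 in WT and from -3.14 to 4.98 in KO mice.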

How the results depend on the processing

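All 50 of the largest WT differences kept their direction and their call under every alternative run. The 3380 calls in WT became 2987 with the 6 arrays alone, 5140 with the 6 arrays and the replicate block (2705 lower), 4738 with the block in the full fit (2449 lower) and 1503 at 2-fold or more (936 higher, 567 lower), and 2701 to 3123 when 1 of the 6 arrays was left out. The 454 genotype interactions became 1002 with the block (372 more positive and 630 more negative in WT), 281 with the 12 LK arrays alone (82 and 199), 935 with array weights (362 and 573), and 361 to 499 when 1 array was left out. With the block the number of calls was larger in 23 of the 34 lists and smaller in 0, and among the genes named the WT calls it changed are those given with it above. List medians moved beyond the spread of the arrays as follows. With the mean of all probe sets of a gene they were 0.999 for myeloid transcription factors, 0.92 for myeloid receptors, -1.18 for erythroid receptors, 1.38 for sort genes, 1.35 for NADPH oxidase subunits, 0.33 for integrins, -0.58 for iron genes, 0.78 for early lymphoid genes and 1.14 for MHC class II genes, and Pde4d turned to 1.11. Without probe sets ending in _x_at or _s_at they were 1.75 for myeloid receptors, 0.30 for integrins, 0.84 for early lymphoid genes, 0.99 for MHC class II genes and 0.38 for STATs, and the interaction of Lyz1 turned to 0.027. Without the dimmest 40% of genes, which leaves fewer members, they were -1.19 for erythroid receptors, 3.04 for monocyte and macrophage genes, 1.73 for NADPH oxidase subunits, 1.37 for integrins, -1.28 for heme enzymes, -0.79 for iron genes, -2.81 for red cell membrane genes, 0.32 for mast cell genes, 2.91 for early lymphoid genes, 1.07 for dendritic cell genes, -0.028 for stroma genes, 0.17 for D cyclins and 0.76 for STATs. After median centring they were -0.027 for mature neutrophil genes, 0.42 for integrins, -1.30 for heme enzymes, -0.15 for globin genes, -0.18 for mast cell genes, -0.077 for eosinophil genes, -0.051 for D cyclins and -0.54 for antioxidant genes, and after further quantile normalization -1.13 for heme enzymes and -0.10 for globin genes. When 1 array was left out they ran from -1.43 to -1.11 for heme enzymes, from -0.69 to -0.33 for iron genes, from -0.39 to -0.19 for megakaryocyte genes, from 0.94 to 1.27 for early lymphoid genes, from 0.032 to 0.15 for D cyclins and from -0.54 to -0.27 for antioxidant genes. Of 299 genes named, 18 that were called in WT lost the call or turned sign under at least 1 alternative, as did 24 of 60 interactions, Dntt among them with the 12 LK arrays alone (3.29, adjusted p = 0.099). The others were Add1, Aldh1a7, Bcl2, Bex6, Cebpd, Chdh, Cnr2, Cx3cr1, Epx, Flt3, Ifngr1, Ikzf2, Lyz1, Ms4a4b, Ms4a6d, Nkg7, Paqr9, Rag2, Rgs18, S100a8, Slc2a1, Slc40a1 and Tfr2. Leaving out 1 of the 12 LK arrays was enough to end the call for Add1, Aldh1a7, Bcl2, Bex6, Cebpd, Cx3cr1, Epx, Flt3, Ikzf2, Lyz1, Ms4a4b, Nkg7, Paqr9, Rag2, Rgs18, S100a8, Slc2a1 and Tfr2. The interaction of Epx was -2.29 without KO GFPhi replicate 3, still called. With the mean of all probe sets of a gene 76 WT differences and 21 interactions of genes named moved by over 1.5 times, of which 3 and 4 lost the call or turned, the interactions being Add1 (0.36), Cebpd (-0.67), Ikzf2 (-0.61) and Slc2a1 (-0.74). With array weights the interactions of Bcl2 (1.13) and Paqr9 (-1.25) were lost. Without probe sets ending in _x_at or _s_at, Tfr2 (-2.35), Tspan33 (-2.36), Fech (-2.15), Gstm1 (1.03) and Hoxa5 (0.87) moved by over 1.5 times in WT and were still called. The cause of these shifts was not tested. Genes near the bottom of the signal range have only a bound, since RMA values carry no call of presence, and 3 arrays per group limit all smaller differences.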

Other observations

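The genes in this paragraph were chosen after their values were seen, as families with members among the largest differences (GFPhi minus GFPneg in WT, log2, limma). Of the 17 measured Ms4a genes on chromosome 19, which encode membrane proteins of leukocytes, 6 were higher in GFPhi cells, against 9.98% of all genes. Since the family was chosen for its large differences, this count is raised by the choice. The 6 were Ms4a6b (5.06), Ms4a6c (5.05), Ms4a4b (3.81), Ms4a3 (3.45), Ms4a4c (3.07) and Ms4a6d (1.21, and 0.56 and not called without probe sets ending in _x_at or _s_at), and the other 11 were not called. Near copies among them may share signal on the array. Aldh1a1 (-5.87) and Aldh1a7 (-4.96), neighbouring genes of aldehyde dehydrogenases on the same chromosome, were lower in GFPhi cells, and Aldh1a2 (-0.09) and Aldh1a3 (0.19) were not called. In the serine protease cluster of chromosome 14, Ctsg (6.04) and Mcpt8 (2.66) were higher and Gzmb (-0.80) was lower in GFPhi cells, and the other measured Mcpt and Gzm genes there were not called.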
